A study of Danio rerio with 3 samples.

Results

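Immediate early genes are switched on within minutes of a stimulus, before any new protein has to be made. Kinase cascades reach their promoters through factors that are already in the cell, and several of the products are transcription factors themselves. Fos and Jun family proteins pair through leucine zippers to form AP-1, which binds DNA at the regulatory regions of growth, stress and migration genes, and Atf3, a related zipper protein, is known as a stress-induced repressor. In endothelium and blood these genes respond to shear stress, cytokines and wounding, and they are also known to rise when tissue is dissociated into single cells.

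The genes described here are 10 such genes taken by name: the Fos family members fosab, fosb, fosl1a and fosl2, the Jun family members jun, junba and junbb, and atf3, egr1 and btg2. All 10 are among the 19831 genes of the count table. Their levels were followed in single cells from zebrafish trunks, sorted at 36 hours post fertilization, a stage at which hemogenic cells leave the wall of the dorsal aorta to form blood, and sequenced in wells by STRT-seq. The fish carried GFP under the control of spi2 through Gal4 and UAS, and mCherry driven by kdrl. The 2 libraries, DP1 and DP2, hold cells that the deposited cell table lists as kdrl+spi2+, and no fish group or treatment sets them apart. The labels do not say that they came from separate groups of embryos. The p-values below therefore measure only how far class differences vary between these libraries, a spread that may be technical and is largely pooled over genes. SP cells, listed as kdrl-spi2+, were not analysed here.

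Cells with 500 or more genes were kept, 53 of DP1 with 9232289 counts in all and 35 of DP2 with 3114643. The median total per cell was 134394 and 58292. Cells with any count of cdh5, the gene of the endothelial junction protein VE-cadherin, formed the cdh5-positive class (6 in DP1 and 5 in DP2). Cells with npsn, a neutrophil protease gene, at 500 CPM or more (CPM is the count scaled to the total of the cell or sum) formed the npsn-high class (5 and 2), and 42 and 28 cells were left as the rest. The lowest npsn-high cell stood at 1521 CPM and the highest other cell at 274 CPM. No cell met both rules. In the npsn-high sum of DP2, 1 of the 2 cells gave 94.4% of the 153267 counts, so that sum is close to a single cell. The deepest of the 5 cdh5-positive cells of DP2 gave 54.3% of theirs. Both libraries used 32 of the same well barcodes, and no 2 cells had identical counts.

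The class names were set beside other markers. Over a list of 20 endothelial markers, which includes cdh5 itself, the cdh5-positive sums of DP1 and DP2 held 1163 and 1626 CPM (16 and 17 genes found). The rest held 241 and 381 CPM and the npsn-high sums 69.1 and 104 CPM. Of that list, pecam1 stood at 185 and 391 CPM in the cdh5-positive sums of DP1 and DP2, against 13.1 and 59.6 CPM in the rest. It was at 0 in both npsn-high sums. The neutrophil gene lyz stood at 22370 and 26070 CPM in the npsn-high sums and at 388 and 1361 CPM in the rest. Runx1, a regulator of hemogenic endothelium, had counts in 2 of 6 cdh5-positive cells of DP1 and 0 counts in the 5 of DP2, which allows up to 4.30 CPM. The cdh5-positive sums also held markers of epidermis, 1033 and 2040 CPM over the list against 29.3 and 318 CPM in the rest. Of the 7 markers on that list 3 and 4 were found, led by krt8 at 438 and 717 CPM, while krt5 was at 0. In DP1 the cdh5-positive sum was also above the rest over the neutrophil list (2020 against 1139 CPM, 7 of 11 genes found), the erythroid list (859 against 442 CPM), the mesenchyme list (249.5 against 12.1 CPM) and the macrophage list (100 against 14.9 CPM). The mesenchyme sum of DP1 came from 1 of 5 genes and the macrophage sum from 2 of 7. In DP2 the mesenchyme (78.9 against 16.8 CPM) and macrophage sums (35.9 against 21.2 CPM, 1 of 7 genes found) were also above the rest. The neutrophil and erythroid sums of DP2 were below it. The neural sum was above the rest in DP2 (163.5 against 61.0 CPM) and below it in DP1 (26.5 against 99.8 CPM). Muscle sums were 4.73 and 209 CPM in DP1 and DP2, against 3.98 and 183 CPM in the rest. The npsn-high sums of DP1 and DP2 exceeded the rest over the progenitor list (1908 and 1174 against 782 and 376 CPM). They also did so over the macrophage list (145 and 294 against 14.9 and 21.2 CPM), where 3 and 1 of 7 genes were found in the npsn-high sums. The part of these markers in the differences below was not tested. Low-level reads occurred where a gene was not expected: npsn was found in 37 of 42 rest cells of DP1 (88.1%, median total 115256) and 16 of 28 of DP2 (57.1%, median total 56616), at 3.08% and 7.47% of the level of the whole library. The share of cells with a count is therefore not read as a share of expressing cells, and levels are compared instead.

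Taken as a sum, the 10 genes were high in cdh5-positive cells, intermediate in the rest and low in npsn-high cells, in both libraries. They made up 0.737% of all counts of the cdh5-positive sum in DP1 and 1.06% in DP2. Their part of the rest was 0.421% and 0.598%, and of the npsn-high sums 0.144% and 0.0816%. Between cells the sum ran from 802 to 1892 CPM in the 7 npsn-high cells and from 769 to 18220 CPM in the 11 cdh5-positive cells. Of the latter, 9 lay above every npsn-high cell. The lowest cdh5-positive cell, of DP1, held 713 CPM of fosl2 and 0 counts of 6 of the other genes. Among the rest the sum ran from 148 to 26480 CPM, and 30 of 42 cells in DP1 and 22 of 28 in DP2 lay above every npsn-high cell. The highest of these cells had 6165 CPM of jun, 4750 CPM of fosab, 3838 CPM of fosb and 0 counts of the 4 hsp70 genes. The highest rest cell of DP2, at 11880 CPM, had 3295 CPM of 1 of them, hsp70l.

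**Figure D1:**
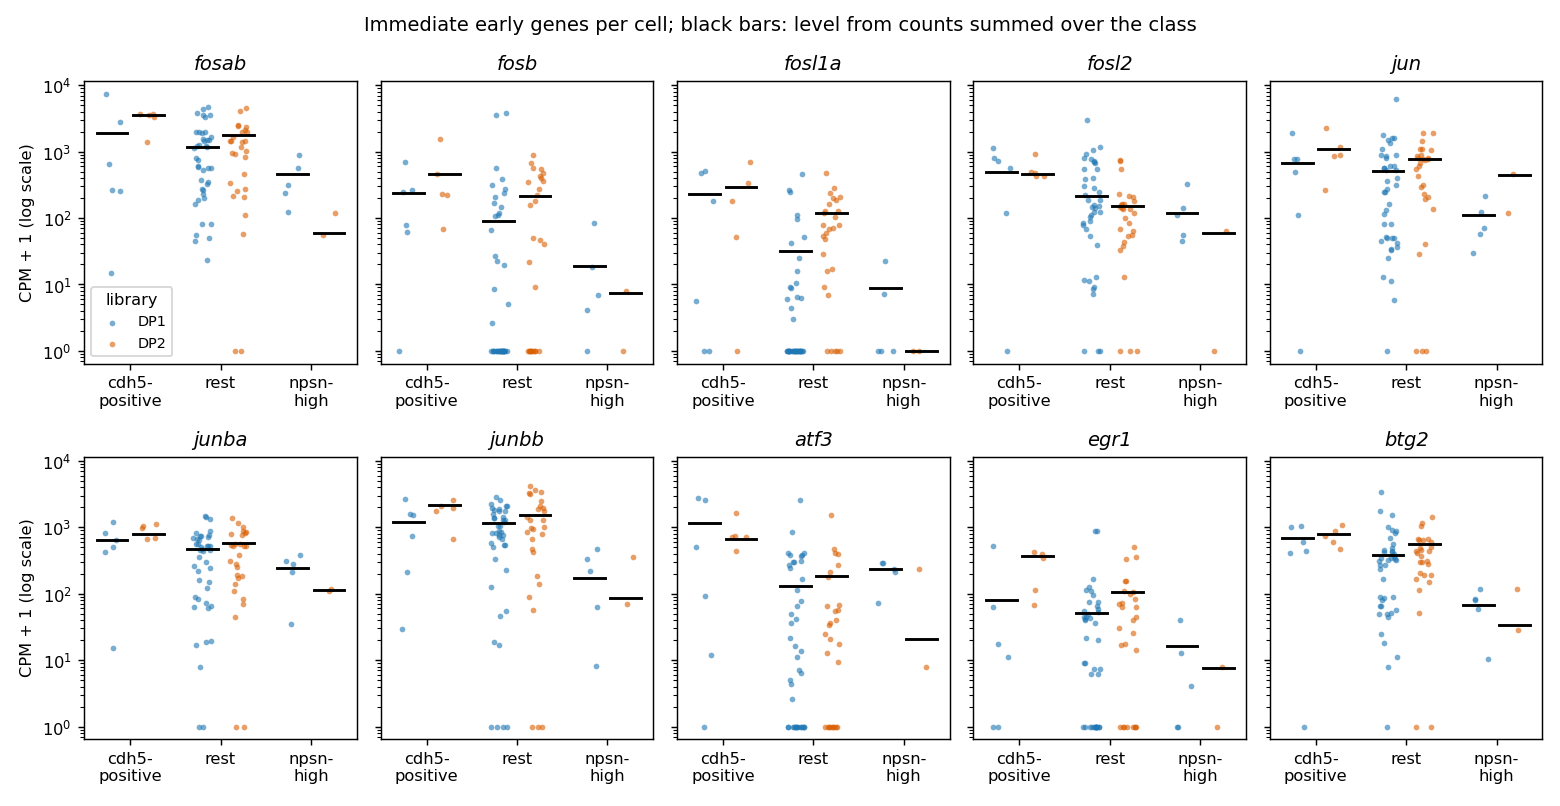
Level of each of the 10 genes per cell (CPM + 1, log axis) by class, with DP1 in blue and DP2 in orange. Points are cells and each black bar is the level from the counts summed over that class and library. The btg2 and junbb bars of npsn-high cells lie below those of both other classes in both libraries, and rest cells spread over the whole axis.

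Counts were summed per class and library and tested with edgeR's quasi-likelihood test with library as a block, over 7071 genes. A gene was called at a Benjamini-Hochberg adjusted p under 0.05. Each fitted difference below is on the log2 scale of that fit, with totals rescaled by the TMM method, and comes with its standard error (SE), from 2 libraries. Ratios and folds of CPM use raw totals, so they can differ from the fitted scale in size and, near 0, in sign. The spread behind each p-value was mostly shared over the tested genes, with 56.56 prior against 2 residual degrees of freedom. The calls therefore rest on that shared spread more than on a gene's own. Against the rest, npsn-high cells had lower levels of btg2, fosab and junbb, so 3 of the 10 genes fell and 0 rose, where 0.424% of all tested genes fell and 1.54% rose. The median of the 10 was -2.02, and over all tested genes it was -0.38. Cdh5-positive cells exceeded npsn-high cells in atf3, btg2, fosab, fosb, fosl1a and junbb, which makes 6 of 10 higher and 0 lower, where 0.99% of all tested genes were higher and 1.8% lower. Here the median was 2.93 for the 10 genes and 0.22 for all genes. Both comparisons rest on the same npsn-high sums. Between cdh5-positive cells and the rest 0 of 10 genes were called, where 0.58% of all tested genes were (0.552% higher and 0.0283% lower). At an unadjusted p under 0.05 the edgeR test gave 2 of them, atf3 and fosl1a, where 9.22% of all genes passed. The DESeq2 Wald test also called 0 of the 10, where it called 31 of all 7071 genes. All 10 fitted values in that comparison were above 0, with a median of 0.88 against -0.15 over all genes. By library, on the scale of the fit, 9 of the 10 were above 0 in both, and junbb was at -0.10 in DP1 and 0.31 in DP2. In thinned cells of DP1, however, the summed CPM of fosb was lower in cdh5-positive cells than in the rest. DESeq2 size factors shift all genes alike and move the median of all genes to 0.05. The median of the 10 lay 1.03 above that of all genes as reported and 0.757 above it in thinned cells.

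**Figure D2:**
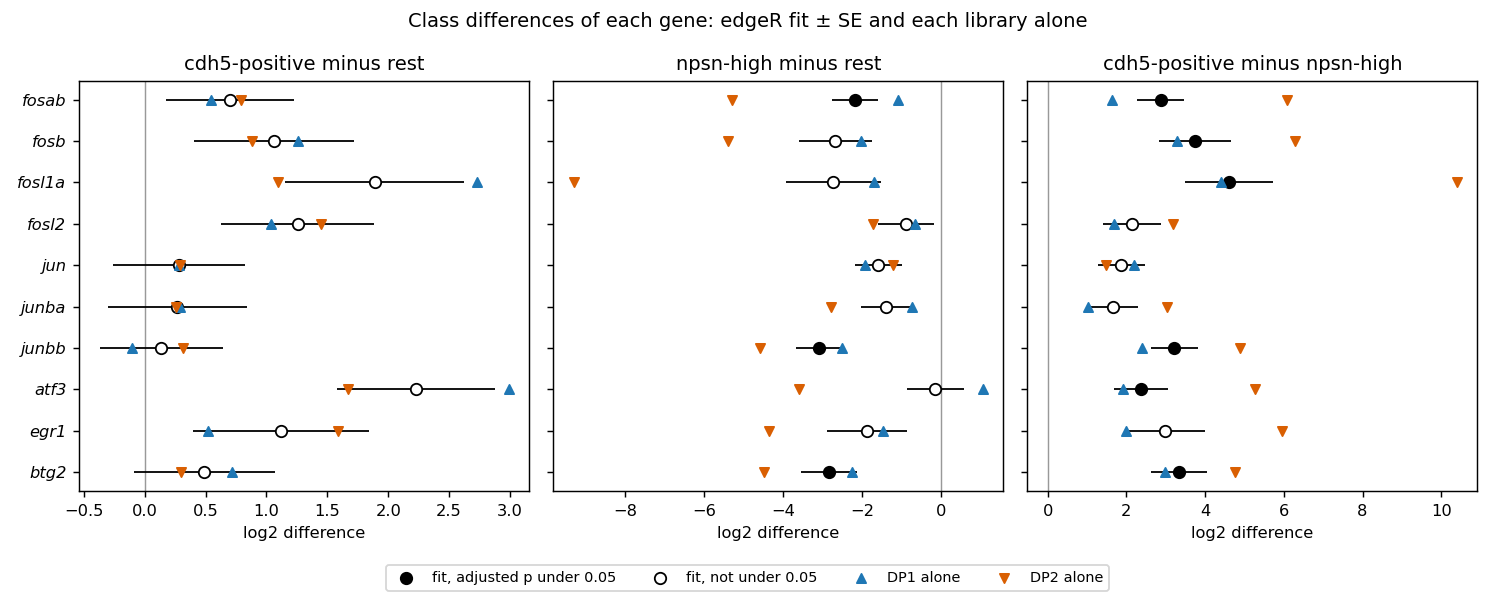
Differences between classes for each gene on the log2 scale, in 3 panels. Circles are the edgeR fit with its SE, filled where the adjusted p was under 0.05, and triangles are DP1 and DP2 alone, with no test. All 10 genes lie above 0 in both libraries for cdh5-positive minus npsn-high cells. Where a sum holds 0 counts, as for fosl1a in npsn-high cells of DP2, the position of the DP2 triangle depends on the prior count and is no measure of size.

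Fosab, an orthologue of the mammalian Fos gene, stood at 1917 CPM in cdh5-positive cells of DP1 (95% Poisson interval 1835 to 2003, here and below for counting error only) and at 3509 CPM in those of DP2 (3371 to 3650). Rest cells had 1177 and 1761 CPM, and npsn-high cells 464 and 58.7 CPM. The sums had the same order of classes in both libraries. By cells of DP1 that order turned, with a median of 456 CPM in cdh5-positive cells and 772 CPM in the rest, and 2 of 6 cdh5-positive cells lay above the latter. Fosab fell in npsn-high cells by 2.17 ± 0.59 against the rest (edgeR, adjusted p = 0.0306; DESeq2 Wald test, adjusted p = 0.0685), and cdh5-positive cells were higher than npsn-high cells by 2.87 ± 0.60 (adjusted p = 0.00164). Single cells overlapped: the 7 npsn-high cells ran from 55.3 to 896 CPM, and 7 of 11 cdh5-positive cells and 20 of 42 rest cells of DP1 lay above that range. In cdh5-positive cells of DP1 the values were 14.0, 255, 265, 647, 2792 and 7404 CPM. Those of DP2 were closer together, with 1391, 3345, 3525, 3644 and 3656 CPM. The drop against the rest was 2.54-fold within DP1, and the DP2 level in npsn-high cells is 9 counts.

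Fosb, which encodes another activating Fos protein, stood at 236 and 460 CPM in cdh5-positive cells of DP1 and DP2, at 87.8 and 217 CPM in the rest and at 6.53 CPM in npsn-high cells of DP2. In npsn-high cells of DP1 it had 25 counts of 1388399, and the DP2 value is 1 count, with an interval of 0.165 to 36.4 CPM. Cdh5-positive cells were higher than npsn-high cells by 3.73 ± 0.92 (edgeR, adjusted p = 0.00978). Against the rest the npsn-high value was -2.67 ± 0.92, which was not called (adjusted p = 0.15) but was by the DESeq2 Wald test (adjusted p = 0.0324). By cells of DP1 that order turned, with a median of 6.01 CPM in npsn-high cells and 0 CPM in the rest. Of the 5 npsn-high cells, 4 lay above that rest median. In the rest, fosb had 0 counts in 22 of 42 cells of DP1 and 10 of 28 of DP2, while the highest cells held 3838 and 876 CPM. In DP1 the order of cdh5-positive cells over the rest held by medians over cells (164 against 0 CPM). It turned by means over cells (226.5 against 242 CPM) and in sums of thinned cells (198 against 262.5 CPM).

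Fosl1a belongs to the Fos-like proteins, which bind DNA with Jun partners but lack the strong activation domain of Fos. In cdh5-positive cells it stood at 231 CPM in DP1 and 295 CPM in DP2. Rest cells differed more between the libraries, with 30.8 and 120 CPM, and npsn-high cells had 7.92 CPM in DP1 and 0 counts in DP2, which allows up to 19.6 CPM. The difference between cdh5-positive and npsn-high cells was 4.61 ± 1.11 (edgeR, adjusted p = 0.00841), and within DP1 it was 29.1-fold. That fold rests on 11 counts in npsn-high cells, found in 2 of 5 cells, with 81.8% of them from 1 cell. Of the 244 counts in cdh5-positive cells of DP1, 56.15% came from 1 cell. Its level in cdh5-positive cells was 7.49-fold that of the rest in DP1 and 2.47-fold in DP2, a fitted difference of 1.89 ± 0.73 that was not called (adjusted p = 0.322). Of the 11 cdh5-positive cells 3 had no count of it, and the highest had 709 CPM.

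Fosl2, the other Fos-like member, had the same order of classes in both libraries. Its levels in DP1 and DP2 were 501 and 467 CPM in cdh5-positive cells, 217 and 148 CPM in the rest, and 117 and 58.7 CPM in npsn-high cells. None of its 3 differences was called. The fitted difference was 2.14 ± 0.73 between cdh5-positive and npsn-high cells (edgeR, adjusted p = 0.0989) and 1.26 ± 0.63 between cdh5-positive cells and the rest (adjusted p = 0.54). The former was called by the DESeq2 Wald test (adjusted p = 0.0195) and in thinned cells (adjusted p = 0.0325, over 1713 genes). All 5 cdh5-positive cells of DP2 lay between 428 and 928 CPM, above the median of the rest, 126 CPM. In npsn-high cells it ran from 0 to 328 CPM, and 9 of 11 cdh5-positive cells were above that.

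Jun, whose product is the main partner of Fos in AP-1, stood at 681 and 1077 CPM in cdh5-positive cells, at 502 and 765 CPM in the rest and at 111 and 437 CPM in npsn-high cells of DP1 and DP2. It was the member least reduced in npsn-high cells of DP2, where it made up 53.6% of the 125 counts of the 10 genes, and 98.5% of its counts there came from 1 cell. The fitted difference between npsn-high cells and the rest was -1.58 ± 0.59 and that between cdh5-positive and npsn-high cells 1.87 ± 0.60, neither of them called (edgeR, adjusted p = 0.215 and 0.0773). The latter passed with DESeq2 size factors (adjusted p = 0.0466), total count scaling (0.0348), robust fitting (0.0422) and npsn at 200 CPM (0.0398). It also passed in thinned cells (0.0369, over 1713 genes). It was not called by the DESeq2 Wald test (0.0608) or with no filter on low counts (0.172), among others. Cdh5-positive cells and the rest differed by 0.28 ± 0.54, less than its SE.

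The paralogues junba and junbb, which encode JunB proteins, are counted separately in the table. Junba stood at 652 and 802 CPM in cdh5-positive cells of DP1 and DP2, at 476 and 584 CPM in the rest and at 241 and 111 CPM in npsn-high cells, and none of its 3 differences was called. Junbb stood at 1209 and 2202 CPM in cdh5-positive cells, at 1160 and 1539 CPM in the rest and at 171 and 84.8 CPM in npsn-high cells. Its levels in cdh5-positive cells and in the rest were thus close in DP1, a CPM ratio of 1.04, and further apart in DP2, at 1.43. On the rescaled totals of the fit the DP1 difference was -0.10. Junbb fell by 3.08 ± 0.59 in npsn-high cells against the rest (edgeR, adjusted p = 0.000525) and was higher by 3.22 ± 0.60 in cdh5-positive than in npsn-high cells (adjusted p = 0.000284), each the smallest adjusted p among the 10 genes. The 7 npsn-high cells held between 7.30 and 470 CPM of junbb, and 31 of 42 rest cells of DP1 and 20 of 28 of DP2 lay above that range. Whether the paralogues differ from each other in these contrasts was not tested.

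Atf3, the zipper protein gene, stood in cdh5-positive cells at 1170 CPM in DP1 (1106 to 1237) and 664 CPM in DP2 (605 to 727). Rest cells had 131 and 182 CPM, so the ratio was 8.92 in DP1 and 3.66 in DP2. Most of the 1238 counts of DP1 lay in a single cell (61.4%), and the 6 cells of DP1 had 0, 10.9, 92.8, 510, 2601 and 2783 CPM. The 5 of DP2 had 434, 715, 721, 729 and 1656 CPM, all above the median of the rest. The fitted difference was 2.23 ± 0.65 and was not called (edgeR, adjusted p = 0.0978). It was called in cells thinned to equal depth, at 2.01 ± 0.42 (adjusted p = 0.0229, over 1713 genes), and with robust fitting (adjusted p = 0.0254). In npsn-high cells its summed level was 231 CPM in DP1, above the rest, and 19.6 CPM in DP2, which is 3 counts. The 2 npsn-high cells of DP2 had 6.91 and 234 CPM, on either side of the rest median of 28.4 CPM. Within DP1 the 5 npsn-high cells lay close together, from 71.3 to 294 CPM, and all 5 were above the median of the rest, 13.9 CPM. The fitted difference between npsn-high cells and the rest was -0.14 ± 0.72. Cdh5-positive cells exceeded npsn-high cells by 2.37 ± 0.69 (adjusted p = 0.0415), a call that was lost without the deepest cell of each class (1.17 ± 0.73, adjusted p = 0.456) and with npsn at 200 CPM (adjusted p = 0.0631).

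Egr1, a zinc finger factor induced through serum response factor, was found at 80.3 and 367 CPM in cdh5-positive cells, at 49.8 and 106 CPM in the rest and at 15.1 and 6.53 CPM in npsn-high cells of DP1 and DP2. In cdh5-positive cells of DP1, 81.2% of its 85 counts came from 1 cell with 513 CPM, and 2 of the 6 cells had none. The order turned there by medians over cells, with 13.3 CPM in cdh5-positive cells and 19.8 CPM in the rest. Of the 6 cdh5-positive cells, 2 lay above that rest median. None of its differences was called by edgeR as reported, including the 2.99 ± 1.01 between cdh5-positive and npsn-high cells (adjusted p = 0.0974). The DESeq2 Wald test called that difference (adjusted p = 0.0103).

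Btg2, an antiproliferative gene that is induced along with AP-1 and acts on mRNA turnover through the deadenylase complex, stood at 694 and 786 CPM in cdh5-positive cells, at 376 and 556 CPM in the rest and at 66.3 and 32.6 CPM in npsn-high cells. It fell by 2.84 ± 0.71 in npsn-high cells against the rest (edgeR, adjusted p = 0.0165), a 5.67-fold drop in DP1. Its level in npsn-high cells of DP2 is 5 counts. Cdh5-positive cells were higher than npsn-high cells by 3.33 ± 0.71 (adjusted p = 0.00213). The 7 npsn-high cells ran from 9.26 to 117 CPM, 10 of 11 cdh5-positive cells lay above that, and the one below had 0 counts. Of the rest, 26 of 42 cells in DP1 and 24 of 28 in DP2 were above it.

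All 3 calls against the rest were lost without the deepest cells, while the fitted values stayed below 0 and their SEs rose. The npsn-high sum of DP2 was then a single cell of 8549 counts. The loss therefore cannot show whether the falls came from the deepest cells. Leaving out, in either library, whichever cell of a class was deepest gave 0 of 10 calls in npsn-high cells against the rest by edgeR (7 at an unadjusted p under 0.05, as were 663 of all 6085 genes tested), with btg2 at -2.43 ± 0.86 (adjusted p = 0.166), junbb at -2.15 ± 0.85 (adjusted p = 0.274) and fosab at -1.99 ± 0.89 (adjusted p = 0.372). Between cdh5-positive and npsn-high cells, 5 genes were then called: btg2, egr1, fosb, fosl1a and jun. Of all 6085 genes tested there, 64 were higher and 84 lower. Fosab (adjusted p = 0.0617), junbb (adjusted p = 0.175) and atf3 (adjusted p = 0.456) were no longer called by edgeR. Egr1, fosb and fosl1a had 0 counts in the remaining npsn-high cell of DP2. In DP2 the npsn-high levels of fosab, fosb, fosl1a, junbb, atf3, egr1 and btg2 were 0% to 6.95% of the whole-library level. Those 7 levels rest on 0 to 13 counts each and are not read as expression. In DP1 the corresponding values for the 10 genes ran from 15.8% for fosl1a to 87.2% for atf3. Npsn in rest cells was at 3.08% in DP1 and 7.47% in DP2. The class rule itself holds those npsn values down, so they are no independent floor for other genes.

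Rest cells of DP2 had higher levels than those of DP1 for 9 of the 10 genes, from 1.23-fold for junba to 3.89-fold for fosl1a, and lower for fosl2, at 0.683. With 1 library on each side this has no test. In cells thinned to equal depth 7 of 10 were higher, with fosb at 262.5 CPM in DP1 and 204 CPM in DP2 and atf3 at 195 and 192 CPM. Heat shock genes also differed between the libraries. The 4 hsp70 genes hsp70.1, hsp70.2, hsp70.3 and hsp70l, inducible chaperone genes, made up 0.0227% of the counts of rest cells in DP1 and 0.319% in DP2, and hsp70.2 stood at 43.9 and 879 CPM. The hsp70 copies are near-identical, so how reads were split between them is uncertain. The constitutive chaperone gene hspa8 was at 6521 and 7213 CPM.

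Heat shock genes were kept apart from the 10 genes in the comparisons of classes. Of 12 tested heat shock genes 0 were called between cdh5-positive cells and the rest, where 0.58% of all tested genes were. The median of the 12 was -0.13, but the libraries differed. In DP1 the 4 hsp70 genes together stood at 1181 CPM in cdh5-positive cells and 226.5 CPM in the rest. In DP2 they stood at 936 and 3187 CPM. Each of these hsp70 genes was above the rest in DP1 and below it in DP2. In npsn-high cells 4 fell against the rest: hsp90aa1.2 with a difference of -3.67 ± 0.69 (edgeR, adjusted p = 0.00043), hsp70.2 with -6.04 ± 1.32 (adjusted p = 0.00344), hsp70l with -3.42 ± 0.81 (adjusted p = 0.00991) and hsp70.3 with -4.70 ± 1.22 (adjusted p = 0.0228). These 4 were also higher in cdh5-positive than in npsn-high cells, by 3.21 to 6.46. Over all tested genes 0.424% fell in npsn-high cells against the rest. The share higher in cdh5-positive than in npsn-high cells was 0.99%. Hsp70.1 was not called, at -4.68 ± 1.42 in npsn-high cells against the rest (adjusted p = 0.0751). Hspa8, the mitochondrial chaperonin genes hspd1 and hspe1 and the remaining tested genes were not called in any comparison. Their part in the differences of the 10 genes was not tested. With all heat shock genes taken out of the counts, the same 3 and 6 of the 10 genes were called. Of all 7059 genes then tested, 137 and 212 were called. That step leaves the counts of the 10 genes as they were, so it cannot show what part heat shock genes had.

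**Figure D3:**
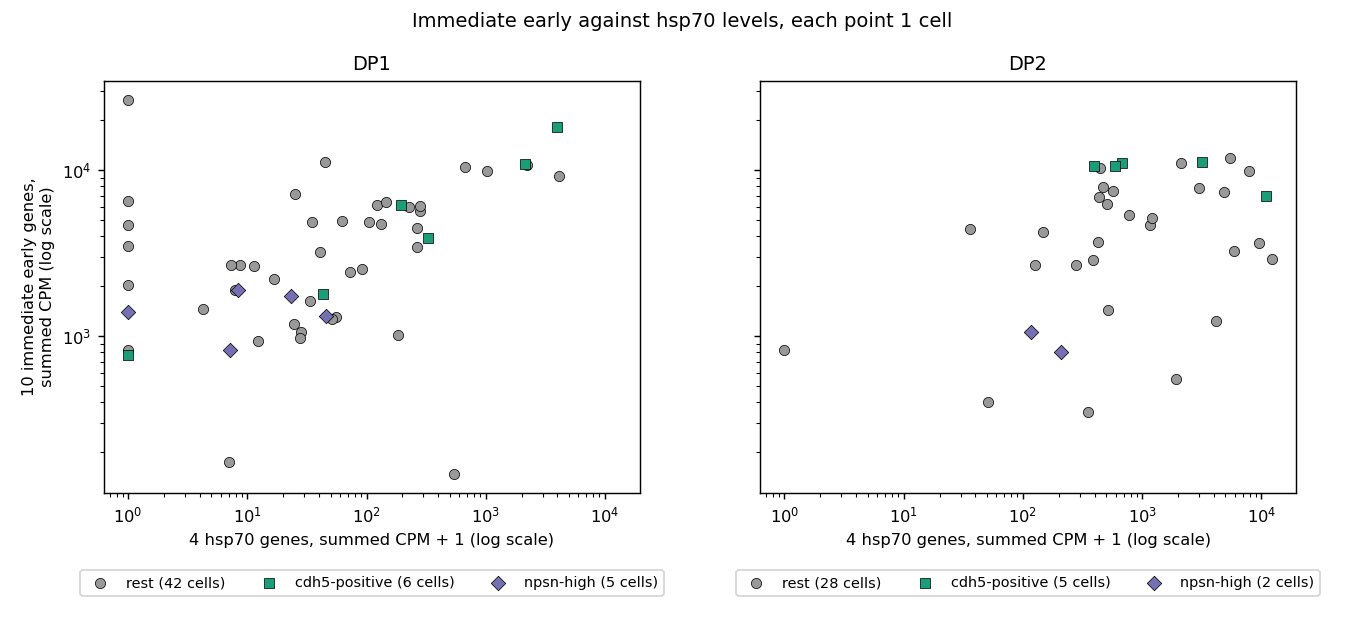
Summed level of the 10 genes (CPM, log axis) against the summed level of the 4 hsp70 genes (CPM + 1, log axis) in each kept cell, DP1 on the left and DP2 on the right. Npsn-high cells (diamonds) lie at or below 1892 CPM in both libraries. The cell with the highest level of the 10 genes, 26480 CPM, has 0 hsp70 counts. The next highest, a cdh5-positive cell of DP1 at 18220 CPM, has 3959 CPM of the hsp70 genes.

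Cells differed in how much of the whole set they held, and the genes varied together to unequal degrees. In rest cells thinned to 20217 counts (63 cells), Spearman correlations between pairs ran from -0.122 to 0.702 with a median of 0.237, and 40 of 45 pairs were above 0. The values describe cells that share 2 libraries and differ in type, and no test is attached. The highest was between fosab and junbb, at 0.748 in DP1 (39 cells) and 0.576 in DP2 (24 cells), where fosb with jun, at 0.815, and fosab with jun, at 0.657, were above it. Fosab and jun followed at 0.676, fosb and jun at 0.596, and jun and btg2 at 0.562. Against the sum of the other 9 genes fosab reached 0.808, jun 0.736 and junbb 0.669, while fosl1a was at 0.174 and fosl2 at 0.082. With the summed heat shock genes fosl2 had -0.272 and the other 9 genes 0.11 to 0.37 over both libraries. Within DP1 fosl2 was at -0.267, and fosb (-0.122) and fosl1a (-0.095) were also negative, while within DP2 fosl2 was at -0.047 and atf3 at -0.06. The sum of the 10 genes had a correlation of 0.357 with summed heat shock genes, 0.35 with spi2, the sort gene, 0.221 with kdrl, -0.181 with the blood progenitor gene myb and 0.094 with the total count before thinning. The libraries differed: in DP1 and DP2 the value was 0.216 and 0.631 for spi2, -0.054 and -0.401 for myb, and 0.523 and -0.041 for hsp70l.

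**Figure D4:**
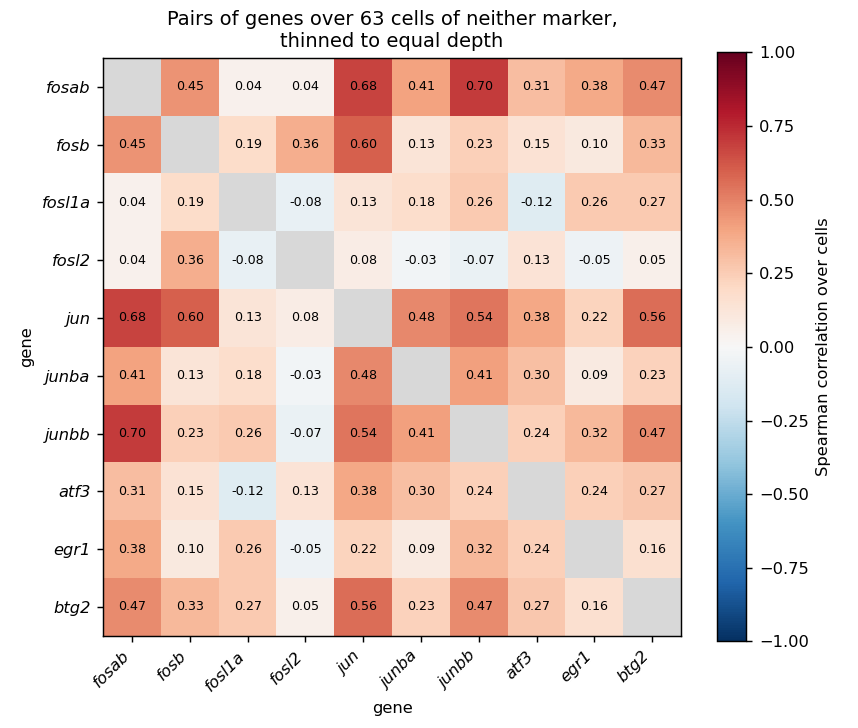
Spearman correlations between pairs of the 10 genes over 63 rest cells thinned to 20217 counts, from blue (negative) to red (positive). The pairs of fosab with junbb and with jun are the strongest, at 0.70 and 0.68, and the row of fosl2 is near 0 apart from fosb.

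The genes most like the 10 in pattern were taken as the 5 with the highest Spearman correlation with their summed level over all 79 thinned cells, among 3598 genes found in at least 20% of them. They were socs3a at 0.707, ier2b at 0.704, socs3b at 0.674, ier2a at 0.645 and the unnamed gene si:ch73-335l21.4 at 0.64. The paralogues socs3a and socs3b encode inhibitors of cytokine signalling, and ier2a and ier2b are immediate early response genes. In the rest alone, socs3a, ier2b and socs3b led at 0.671, 0.631 and 0.624, and they were the first 3 within DP1. Within DP2 the first 3 were ier2a at 0.756 and the ribosomal protein genes rplp2 and rps28 at 0.747 and 0.704, with socs3a at 0.693 and ier2b at 0.599. Socs3a stood at 679 and 1368 CPM in cdh5-positive cells of DP1 and DP2, at 346 and 699 CPM in the rest and at 29.5 and 254 CPM in npsn-high cells.

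Further immediate early and feedback genes were described from a list of 55, of which 50 are in the table and 37 were tested. Of all 7071 genes tested, 0.424% fell and 1.54% rose in npsn-high cells against the rest, with a median of -0.38. From the list 3 fell and 0 rose, with a median of -1.65 (-1.44 with the 4 genes at 0 in npsn-high cells set to their bound). They were socs3a (fell by 2.58 ± 0.66; edgeR, adjusted p = 0.0211), ier2b (fell by 2.42 ± 0.68; adjusted p = 0.0428) and btg3, a relative of btg2, which had 0 counts in npsn-high cells. At a limit of 3 counts over the class, btg3 was at least 42.8-fold higher in the rest (adjusted p = 0.0238). Between cdh5-positive and npsn-high cells the median was 2.15 (1.90 with the same bounds), against 0.22 over all genes. Here 8 genes of the list were higher, where 0.99% of all tested genes were higher and 1.8% lower. The 8 were socs3a, socs3b, ier2a, ier2b, btg3, cebpd, klf2a and zfp36l1b. Socs3b was higher by 3.33 ± 0.76 (adjusted p = 0.00446) and ier2a by 1.89 ± 0.55 (adjusted p = 0.0411). The flow-responsive gene klf2a had 288 and 21 counts in cdh5-positive cells and 2 and 0 in npsn-high cells (adjusted p = 0.0268). Zfp36l1b, which encodes an mRNA decay factor, had 191 and 173 counts against 2 and 1 (adjusted p = 0.0052). Over both libraries klf2a stood at 176 against 1.30 CPM and zfp36l1b at 207 against 1.95 CPM. Dusp2, a phosphatase gene that limits MAP kinases, was the one called in the other direction, with 162 CPM in cdh5-positive and 1240 CPM in npsn-high cells over both libraries (-2.55 ± 0.66, adjusted p = 0.0168).

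Against the rest, cdh5-positive cells had 2 of these 37 genes higher and 0 lower, with a median of 0.45. Over all tested genes 0.552% were higher and 0.0283% lower, with a median of -0.15. Gadd45bb, a stress-induced growth arrest gene, was higher by 3.84 ± 0.97 (edgeR, adjusted p = 0.0395), with 61 and 109 counts in DP1 and DP2 against 12 and 34 in the rest. The rest sums are deeper, and over both libraries the levels were 96.8 against 5.08 CPM. Cebpd, a C/EBP transcription factor gene, was higher by 2.89 ± 0.74 (adjusted p = 0.0422), with 123 and 538 counts against 54 and 290 in the deeper sums of the rest. Over both libraries its levels were 376.5 against 38.0 CPM. Both calls were lost with edgeR's legacy quasi-likelihood setting, which called 2 genes of 7071 in this comparison. The most counted members of this list that were not called were cebpb, mcl1a, nfkbiab and dusp5. Cebpb, another C/EBP gene, was nearly level across classes, from 2976 to 4769 CPM over the 6 sums.

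Further AP-1 and bZIP genes were taken from a list of 23, all in the table. Of these, 11 were tested, and 0 were called by edgeR in any of the 3 comparisons. With an unadjusted p under 0.05 there was 1 in each comparison with the rest and 2 between cdh5-positive and npsn-high cells, shares near those of all genes (652, 854 and 1205 of 7071 in the 3 comparisons). Their medians were 0.68 for cdh5-positive cells and -0.40 for npsn-high cells against the rest, and 0.34 between the 2 classes. With the 1 gene at 0 in npsn-high cells set to its bound, the second was -0.03. Atf4b, of the integrated stress response, stood at 223 and 256 CPM in the rest of DP1 and DP2 and at 264 and 463 CPM in npsn-high cells. Its paralogue atf4a was at 270 and 324 CPM in the rest and at 236 and 26.1 CPM in npsn-high cells. Jdp2b, a Jun dimerization protein gene, was at 620 and 195 CPM in cdh5-positive cells against 221 and 110 CPM in the rest (0.96 ± 0.67, adjusted p = 0.712). Maff, a small Maf gene, was found at 58.7 to 178 CPM over the 6 sums.

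Kinases and serum response factor partners that act upstream of these genes gave 10 tested genes of 23 in the table, and edgeR called 0 in any comparison. At an unadjusted p under 0.05 there were 0 between cdh5-positive cells and the rest and 2 in each other comparison, in opposite directions, to be read against the same counts over all genes. The p38 kinase gene mapk14a, the most counted of them, was at 73.0 and 56.1 CPM in the rest, at 81.3 and 45.9 CPM in cdh5-positive cells and at 16.6 and 19.6 CPM in npsn-high cells (-1.94 ± 1.08 against the rest, adjusted p = 0.462). Elk3 and rps6ka3a, also among the most counted, had 0 to 111 CPM over the 6 sums.

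**Figure D5:**
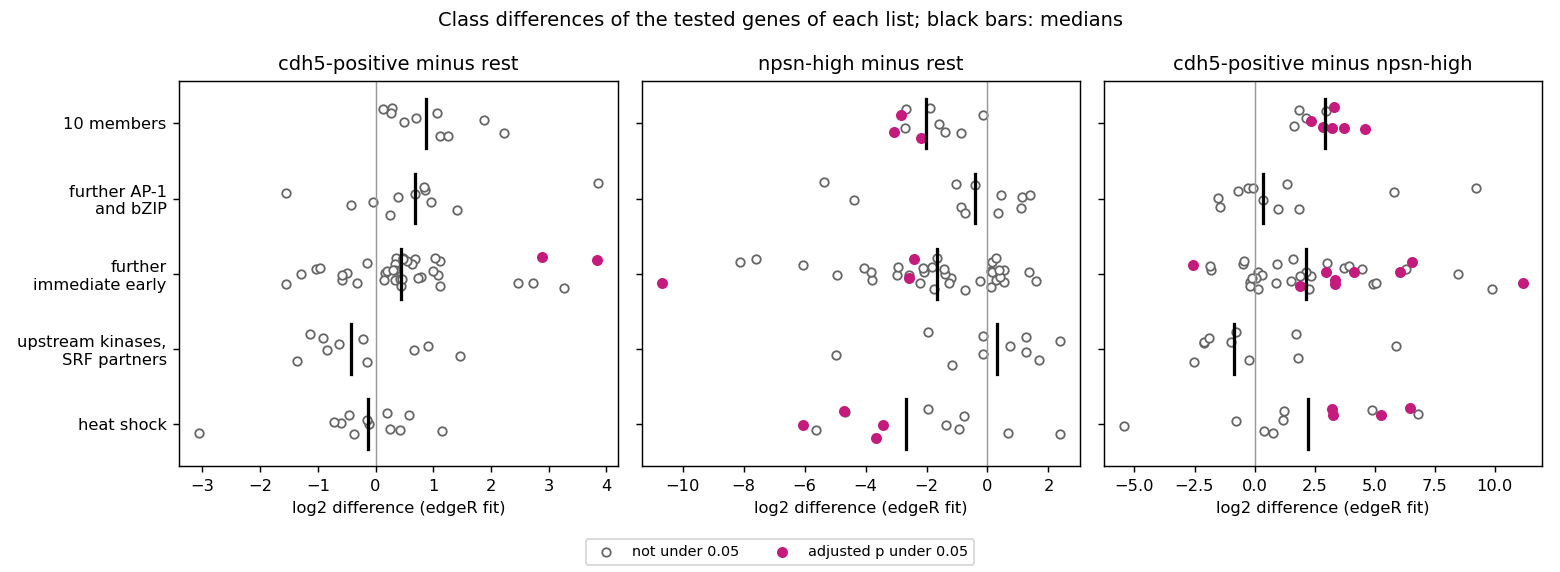
Fitted log2 differences of the tested genes of each list in the 3 comparisons, with genes at an adjusted p under 0.05 filled and medians as black bars. The 10 genes and the further immediate early genes have medians below 0 in npsn-high cells against the rest (-2.02 and -1.65), as the heat shock genes do. There the upstream genes spread from -4.97 to 2.37, with a median of 0.30. Fits of genes with 0 counts in a class, such as btg3, depend on the prior count.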

How the data were processed

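The deposited table holds raw counts per gene and cell, whole numbers used as the authors gave them. Per the submitters' processing notes, which cover several assays, Trimmomatic 0.36, HISAT2 2.1.0 and build GRCz11 were used. The counting tool, the collapse of identical molecules and the use of strand were not given in the sources used here. The deposited cell table gives the names of libraries and sorts. It lists 56 further DP2 cells and 93 SP cells, which were not analysed here, and lacks 1 DP1 well that has counts.

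The 10 genes, the lists and the classes were chosen with earlier results of these data known. Cells with 500 or more genes were kept (88 of 93), and cells were sorted singly, so no doublet caller was run. Counts were summed per library and class into 6 sums and tested with edgeR 4.0.16 (R 4.3.3): TMM scaling, filterByExpr, quasi-likelihood F test, two-sided, library as a block, 2 residual degrees of freedom, Benjamini-Hochberg adjustment over 7071 genes without cdh5 and npsn. The fit was first run with the package default, the legacy quasi-likelihood setting, and then with the newer setting (legacy = FALSE), which is reported because these data had earlier been processed with it. Both sets of calls had been seen when that choice was made. They name the same members in every comparison, and the counts over all genes under both are given with the other alternatives. For every gene the fit had 56.56 prior degrees of freedom, from the spread shared over genes, beside the 2 residual ones. Each SE is the absolute log2 difference divided by the square root of F. The fit was checked on simulated counts, and no error rate for the sums used here is drawn from that check. The classes pair within a library because both libraries contain all 3.

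Intervals are exact 95% Poisson intervals for counts, and a count of 0 allows up to 3 counts. CPM is relative to a cell's or a sum's total. For correlations, each cell was thinned to 20217 counts (10th percentile of the cell totals), leaving out 9 of 88 cells (3 of 42 rest cells of DP1 and 4 of 28 of DP2 among them). Named genes were the 10, the called genes of each list with up to 4 others with the most counts, and the 5 most similar genes. A gene that this rule would name is not reported here. Levels of different genes were not compared, since no transcript lengths were used. All 10 symbols match RefSeq protein-coding genes by name. Alternatives used DESeq2 1.42.0, other scalings, filters, class rules and depths.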

Additional observations from a re-analysis of the deposited data

Results flagged for a closer look

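The 5 cells left out for having under 500 genes held 16 counts of the 10 genes among 2369, which is 6754 CPM summed, above the 1266 CPM that a count of 0 would allow. Their totals ran from 152 to 1019 counts and 7 of the 10 genes were found, in data outside the comparisons.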

How the results depend on the processing

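Under the legacy quasi-likelihood setting, added after seeing the data, all genes called were 2 for cdh5-positive cells against the rest and 77 for npsn-high cells against the rest, where the reported fit called 41 and 139, and 140 between the 2 classes against 197. It called 0, 3 and 6 of the 10 genes, as reported. For cdh5-positive cells against the rest, robust fitting called 77 of all 7071 genes tested. The number was 23 of 15285 with no filter on low counts and 8 of 7191 with npsn at 200 CPM. In thinned cells it was 20 of 1713. Robust fitting and thinning each called 1 of the 10 genes there, atf3. For npsn-high cells against the rest the count was 91 of 15285 with no filter. It was 75 of 6085 without the deepest cell of each class, where 0 of the 10 genes were called. Between the classes the DESeq2 Wald test called 533 genes. It called 8 of the 10 there, against 6 as reported. Thinning also called 8, where 73 of the 1713 genes tested were higher and 83 lower. Total count scaling there gave 75 higher and 89 lower, against 70 higher and 127 lower as reported. Without the replicate block that pairs classes within a library, edgeR called 0, 65 and 110 genes in the 3 comparisons (574, 788 and 1149 at an unadjusted p under 0.05), and 0, 2 and 5 of the 10 genes. Fosab was lost against the rest (-2.37, adjusted p = 0.126) and atf3 between the classes (2.34, adjusted p = 0.125). The npsn-high difference of atf3 against the rest turned to 0.36 with npsn at 200 CPM and to 0.65 without the deepest cells. Medians over cells in place of summed counts gave 5051 CPM for the 10 genes in cdh5-positive cells of DP1, where the sum gave 7371, and 4317 CPM in the rest of DP2, where it gave 5977. The cause of these changes was not tested. Leaving out 1 library leaves no residual degrees of freedom, so those values have no test, and they are the single-library values: for npsn-high cells against the rest fosab lay at -1.09 and -5.29, junbb at -2.51 and -4.57 and btg2 at -2.25 and -4.47. A gene minimum of 1000, or 2 cdh5 counts, changed no call of the 10 genes, and npsn at 1000 CPM leaves the classes as they are. The npsn-high class is a limit of these comparisons, with 7 cells, and DP2 with 1 cell in effect.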
